A study of Rattus norvegicus with 7 samples.

Results

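The enzymes that remove superoxide and peroxides and keep glutathione and thioredoxin reduced were measured in NR8383 cells, a rat alveolar macrophage line, exposed to ZnO NPs. The genes were picked out by their names, in a set proposed with earlier results of these data known. The set held superoxide dismutases, catalase, glutathione peroxidases, peroxiredoxins, thioredoxins and their reductases Txnrd2 and Txnrd3. It also held thioredoxin-domain proteins, glutaredoxins, glutathione synthetase and reductase, and glutathione transferases. These genes were 61 of the 36174 named genes of the array, with 79 of its 45598 probes. The 3 ZnO arrays came from cells kept for 4 h without serum with 2 µg/mL of zinc oxide NPs, and the 4 control arrays from cells kept for 4 h without serum and without particles. The dose is that of the sample labels, while the methods of the study give a higher dose and another seeding density than the labels do. All arrays came from 1 cell line, and the study's methods describe the replicates as biological, without saying more of how the cultures were separated. Levels and fold changes are on the log2 scale, with levels given as the log2 signal of a probe relative to the 75th percentile of its array, so a value of 0 is the level of that percentile, and a level is comparable between arrays but not between probes.

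Superoxide dismutases turn superoxide into hydrogen peroxide, which catalase, glutathione peroxidases and peroxiredoxins then remove. Glutathione peroxidases and glutaredoxins draw their electrons from glutathione, which glutathione reductase restores, while most peroxiredoxins draw them from thioredoxin, which thioredoxin reductases restore, and both reductases use NADPH. Glutathione transferases join glutathione to reactive molecules. In macrophages, which make superoxide and peroxides on purpose, these enzymes protect the cell from its own oxidants. Many of the genes are known targets of NRF2, a transcription factor that binds antioxidant response elements, and zinc ions act mainly on metallothionein and zinc exporter genes through the factor MTF-1 and its metal response elements.

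None of these genes passed the test for a change. Of the 39 genes that could be tested, 0 passed an adjusted p of 0.05 in limma in either direction, where 0.0619% of all 16160 genes passed as higher and 0% as lower. At an unadjusted limma p of 0.05 the count was also 0 of 39, against 5.87% of all genes, and in 0 of 39 did the ZnO arrays lie wholly above or below the control arrays, against 7.46% of all genes. The median log2 fold change of the 39 genes was -0.0018, against -0.0047 over all genes, with 19 above 0. The median size of the change without its sign was 0.038 for these genes and 0.079 for all genes, and the median standard error was 0.092 and 0.10. Their 95% intervals were narrow: for 38 of 39 genes the interval lay within a 1.5-fold change either way, as it did for 82.9% of all genes, and for 35 of 39 within a 1.3-fold change, as for 59.6% of all genes. Changes smaller than these intervals allow were not detectable with 3 ZnO and 4 control arrays. The levels are averages over a culture, in which fewer cells with a transcript and less of it in each cell cannot be told apart.

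**Figure D1:**
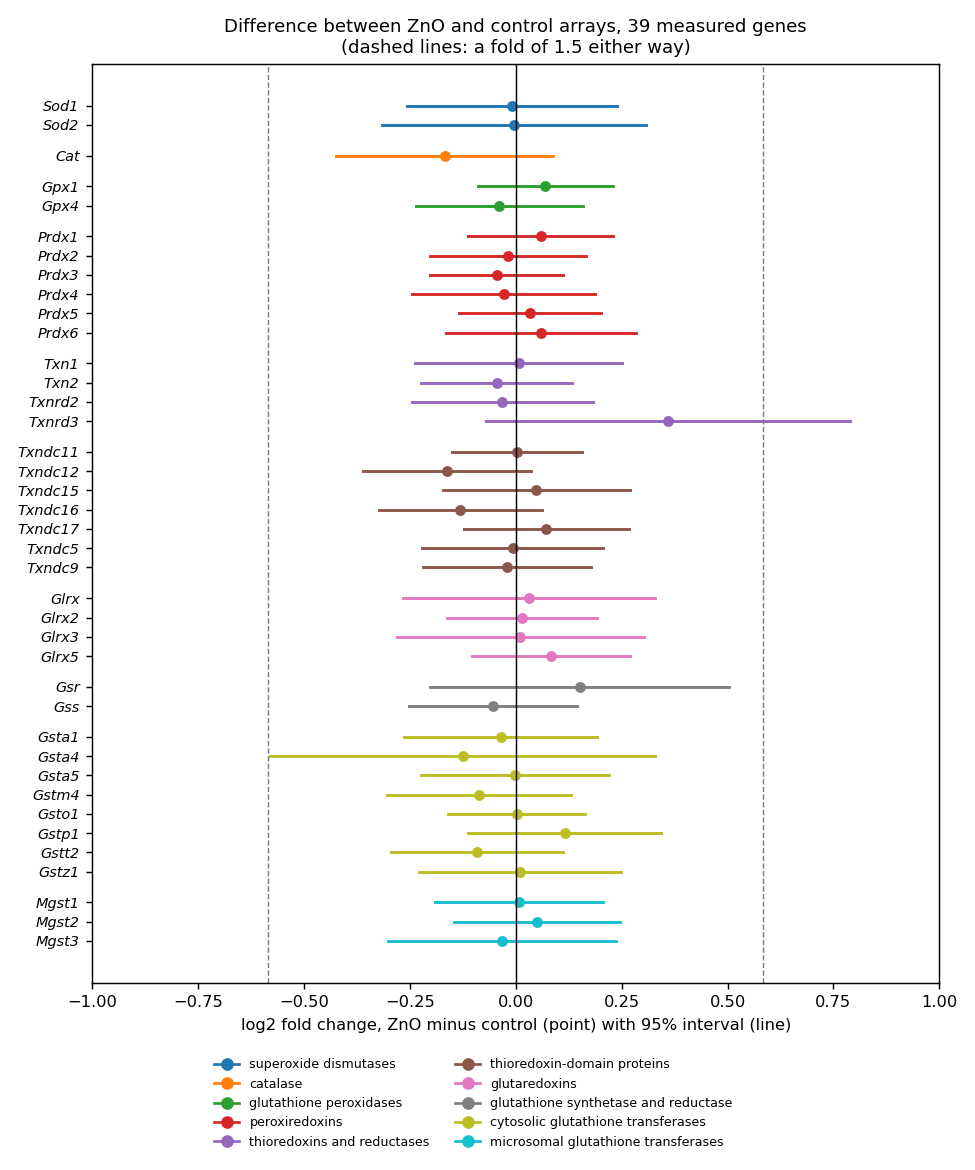
The log2 fold change, ZnO minus control, of each of the 39 measured genes (point) with its 95% interval (line), coloured by enzyme group and read along the horizontal axis; dashed lines mark a fold of 1.5 either way. All 39 intervals include 0, and only that of Txnrd3 passes a dashed line.

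The exposure was visible on the same arrays. Mt2A and Mt1a, which encode zinc-binding metallothioneins, were higher in ZnO cells by 5.83 (SE 0.13) and 3.40 (SE 0.11) on the log2 scale (adjusted p = 3.8e-06 and 3.7e-05, limma), and the zinc exporter Slc30a1 by 1.37 (SE 0.094, adjusted p = 0.0028). Of 12 macrophage markers on the array 10 were tested, among them Cd68, Itgam, Csf1r and Lyz2, while the scavenger receptor gene Marco was well above background on 0 arrays and Adgre1 on 1. Of the markers of other cell types, 0 of 8 epithelial, 2 of 6 fibroblast (Col1a2 and Dcn), 2 of 4 endothelial, 1 of 6 lymphocyte and 3 of 6 neutrophil genes on the array were tested, and none passed the adjusted threshold. Between 52.9% and 54.3% of the spots of the ZnO arrays and between 51.7% and 56.0% of those of the control arrays were well above background, with 0 saturated spots. All 7 arrays lay on 1 slide, the ZnO arrays in one row of it and the control arrays in the other, so the exposure and the row of the slide cannot be told apart.

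Several probes are printed here, because the results below turn on what they bind. The Txn1 gene had one probe on its reference transcript and one on an expressed sequence tag. The files place them on chr5:75921410-75922750, minus strand, and on chr5:75921351-75921410, plus strand, of the rn4 build, so the probes meet at 1 base and read in opposite directions.
Txn1, transcript probe: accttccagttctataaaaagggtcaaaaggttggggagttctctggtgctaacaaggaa
Txn1, tag probe: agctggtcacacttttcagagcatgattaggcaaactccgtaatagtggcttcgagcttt
The dimmer of the tested probes to Gstt2 lies at chr20:13224236-13224295, plus strand. The only probes to Cat and Txnrd3 lie at chr3:88683063-88685007, plus strand, and chr4:123768361-123769113, plus strand. These last spans are longer than the 60 bases of a probe, so the files place the probes across an intron.
Gstt2, dimmer probe: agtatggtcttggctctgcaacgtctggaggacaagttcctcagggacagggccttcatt
Cat: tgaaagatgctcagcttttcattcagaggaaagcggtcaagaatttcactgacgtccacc
Txnrd3: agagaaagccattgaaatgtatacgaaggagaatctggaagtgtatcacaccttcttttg
The probes to Gstp1, on the minus strand of chr1:206628636-206628695 and chr1:206627875-206628652, share the 17 bases in capitals and therefore are not independent readings.
Gstp1, brighter probe: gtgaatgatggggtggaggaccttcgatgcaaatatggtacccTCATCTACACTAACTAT
Gstp1, dimmer probe: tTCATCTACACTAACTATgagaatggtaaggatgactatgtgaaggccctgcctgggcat
Glutathione transferase genes occur as families of close copies. No tested probe shared more than 12 bases in a row with a probe to another of the 61 genes. Binding to the transcripts of relatives was not tested.

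The enzyme groups differed in how many of their genes were detected. Every peroxiredoxin (6 of 6), glutaredoxin (4 of 4), microsomal glutathione transferase (3 of 3) and thioredoxin or thioredoxin reductase in the set (4 of 4) was measured, as were glutathione synthetase, glutathione reductase and catalase. By contrast 2 of 8 glutathione peroxidases, Gpx1 and Gpx4, were measured, and 5 of the others were not well above background on any array. Of 21 cytosolic glutathione transferases 8 were measured, namely Gsta1, Gsta4, Gsta5, Gstm4, Gsto1, Gstp1, Gstt2 and Gstz1. In the mu class, apart from Gstm4, of Gstm1, Gstm2, Gstm3, Gstm5, Gstm6 and Gstm7 none was well above background on any array. Extracellular Sod3 was well above background on 0 ZnO arrays and 2 control arrays, and Gsta2 on 2 ZnO arrays and 1 control array, so neither was tested. Of the 22 genes left out 16 were below this limit on every array and 4 passed it on a single array. The thioredoxin-domain genes Txndc2 and Txndc8, which are known from sperm, were among the 16. Most of the 22 genes had only 1 probe, so a probe that binds poorly and an absent transcript cannot be told apart. Over the whole array, 16160 of the 36174 named genes were tested.

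**Figure D2:**
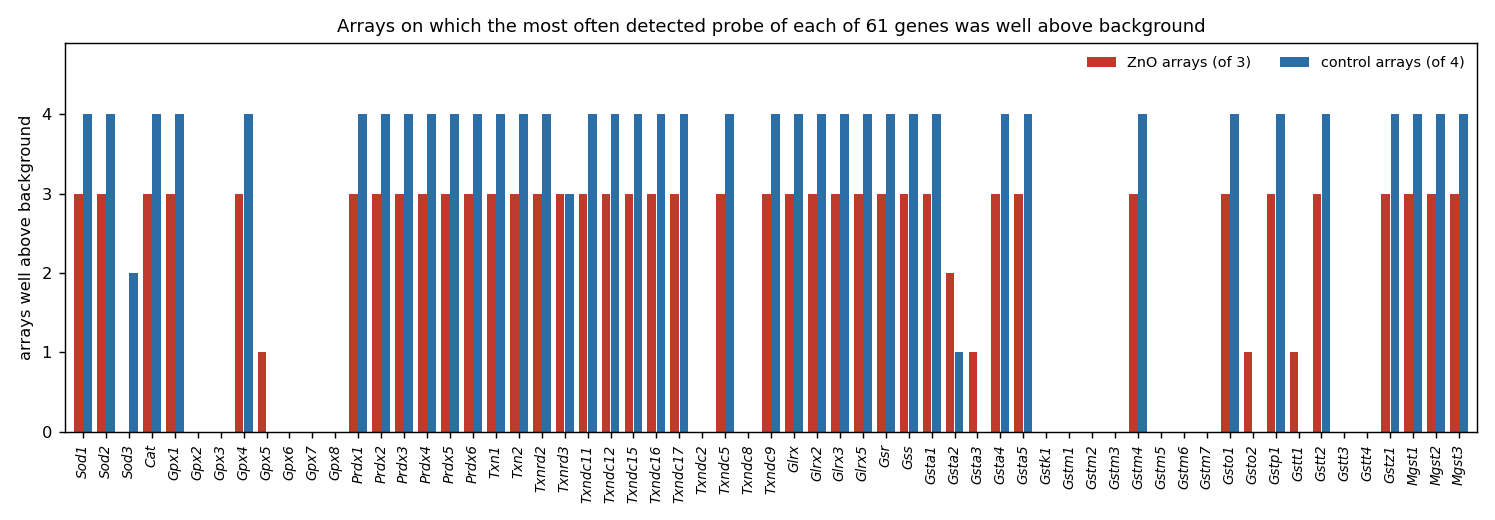
For each of the 61 genes, the number of ZnO arrays (red, of 3) and control arrays (blue, of 4) on which its most often detected probe was well above background. Peroxiredoxins and glutaredoxins reach every array, whereas most glutathione peroxidases and mu-class transferases reach none.

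Neither superoxide dismutase passed the test, and their fold changes lay close to 0. Cytosolic Sod1 had log2 levels of 5.22, 4.899 and 5.03 on the ZnO arrays, against 5.05, 5.00, 5.24 and 4.94 on the control arrays. The groups overlapped fully, with a log2 fold change of -0.0097 (SE 0.11). Sod2, the mitochondrial manganese enzyme that inflammatory signals are known to induce, had 1.198, 1.58 and 1.62 in ZnO cells, against 1.498, 1.66, 1.27 and 1.46 in control cells. ZnO replicate 1 was the lowest of all 7 arrays and the fold change was -0.0047 (SE 0.13), which allows between a 0.803-fold and a 1.24-fold level in ZnO cells.

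Catalase had the lowest fold change of the set. Cat had log2 levels of -2.12, -2.29 and -2.54 on the ZnO arrays, against -2.24, -2.18, -2.02 and -2.15 on the control arrays. ZnO replicates 2 and 3 lay below every control array and ZnO replicate 1 lay among them. The log2 fold change was -0.17 (SE 0.11, 95% interval -0.42 to 0.089, adjusted p = 0.932, limma). Without ZnO replicate 1 the groups no longer overlapped, as in 22.1% of all genes, and the log2 fold change was -0.27, with an unadjusted limma p of 0.040 and an adjusted p of 0.541.

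Both glutathione peroxidases that could be measured had fold changes near 0. Gpx1, the main cytosolic enzyme for hydrogen peroxide, had 4.60, 4.63 and 4.67 in ZnO cells, against 4.49, 4.65, 4.58 and 4.53 in control cells, a log2 fold change of 0.070 (SE 0.068). The ZnO arrays sat close together, with 2 of them inside the control range and ZnO replicate 3 just above it. Gpx4, which reduces lipid peroxides in membranes and holds back ferroptosis, had 6.16, 5.99 and 6.01 in ZnO cells, against 5.999, 6.04, 6.10 and 6.23 in control cells. The fold change was -0.038 (SE 0.084), and a second probe to the same transcript gave 0.011 (SE 0.091). The arrays of each group stood in the same order on both Gpx4 probes.

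The 6 peroxiredoxins gave log2 fold changes between -0.045 (Prdx3) and 0.060 (Prdx6), with 3 above 0 and 3 below, and all their intervals lay between a 0.843-fold and a 1.22-fold level. Prdx1, a cytosolic enzyme and known NRF2 target, had 3.11, 3.19 and 3.22 on the ZnO arrays, against 3.07, 3.19, 3.17 and 3.02 on the control arrays, a fold change of 0.058 (SE 0.073). Prdx6, the member that works with glutathione in place of thioredoxin, had 0.76, 0.51 and 0.47 in ZnO cells, against 0.44, 0.65, 0.48 and 0.51 in control cells (SE 0.096). Its positive sign came from ZnO replicate 1, without which the log2 fold change was -0.031.

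Among the thioredoxins and their reductases Txn1, Txn2 and Txnrd2 had fold changes near 0 and Txnrd3 had a wide interval. Txn1 had 7.55, 7.28 and 7.16 in ZnO cells, against 7.32, 7.22, 7.39 and 7.38 in control cells, a log2 fold change of 0.0069 (SE 0.11). ZnO replicate 1 was the highest and ZnO replicate 3 the lowest of all 7 arrays, so the ZnO arrays enclosed the control arrays. Mitochondrial Txn2 had a fold change of -0.045 (SE 0.077). Txnrd2, the mitochondrial reductase, had -1.06, -1.32 and -1.23 in ZnO cells, against -1.28, -1.23, -1.05 and -1.12 in control cells, a fold change of -0.032 (SE 0.092).

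Txnrd3, a reductase known mainly from testis that also accepts glutathione through a glutaredoxin domain, had the highest fold change of the 39 genes and one of the widest intervals. Its log2 levels were -4.92, -5.19 and -5.39 on the ZnO arrays, against -5.81, -5.48, -5.11 and -5.70 on the control arrays. All ZnO arrays lay above 3 of the 4 control arrays, and control replicate 3 lay among them. The log2 fold change was 0.36 (SE 0.18, 95% interval -0.070 to 0.790, adjusted p = 0.884, limma). The probe was near the limit of detection: it was well above background on 3 of 3 ZnO arrays and 3 of 4 control arrays, and so was tested only through the ZnO arrays, where it was higher. With the other background correction (normexp) the log2 fold change was 0.072.

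**Figure D3:**
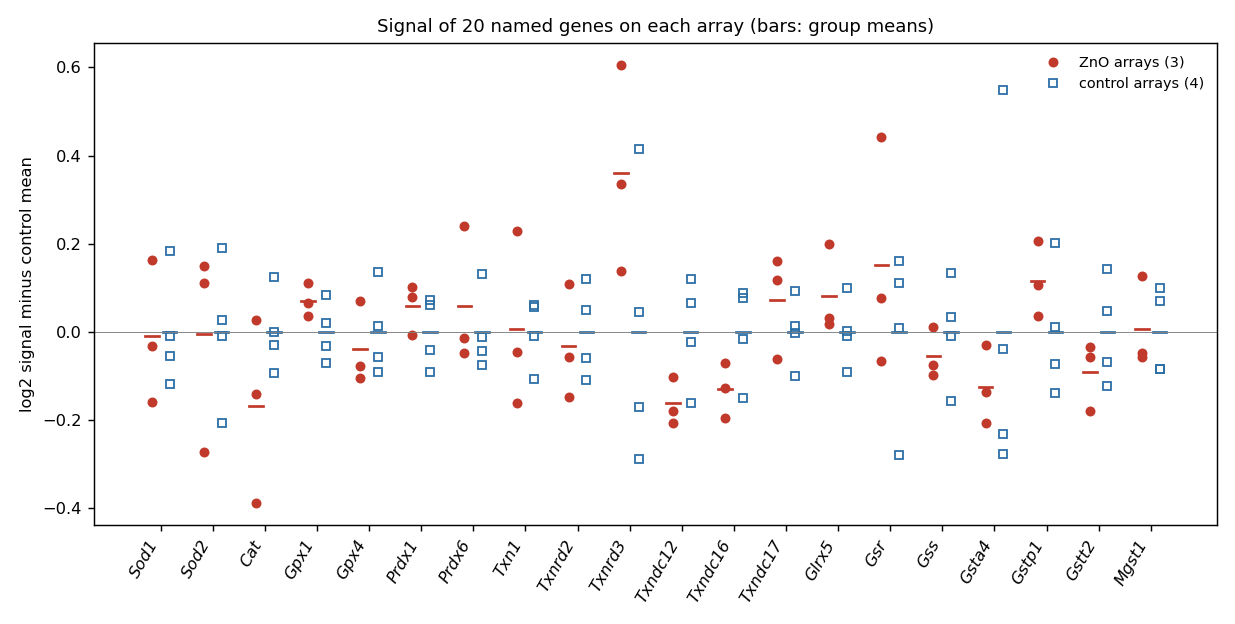
The log2 signal of 20 genes on each array, minus the gene's mean over the control arrays, with ZnO arrays in red (3, left) and control arrays in blue (4, right) and bars at the group means. The groups overlap for all 20 genes, and ZnO replicate 1 of Txnrd3 and control replicate 3 of Gsta4 lie farthest from the control mean.

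The 7 thioredoxin-domain proteins, most of which are oxidoreductases or related proteins of the endoplasmic reticulum, ran from -0.16 (Txndc12) to 0.072 (Txndc17). Txndc12 had 0.30, 0.32 and 0.40 in ZnO cells, against 0.34, 0.57, 0.48 and 0.62 in control cells, a log2 fold change of -0.16 (SE 0.085, adjusted p = 0.892, limma). Control replicate 1 fell within the ZnO arrays and the other 3 control arrays lay above them. Txndc16 had -1.70, -1.77 and -1.65 in ZnO cells, against -1.499, -1.49, -1.59 and -1.73 in control cells, a fold change of -0.13 (SE 0.083). Here control replicate 4 fell within the ZnO arrays. Txndc17, a small cytosolic thioredoxin-like protein, had 1.498, 1.68 and 1.72 in ZnO cells, against 1.46, 1.65, 1.56 and 1.57 in control cells, a fold change of 0.072 (SE 0.084).

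Glutaredoxins, which reverse the joining of glutathione to proteins, gave 4 fold changes above 0, the highest at 0.082 (SE 0.080) for Glrx5, a mitochondrial protein of iron-sulfur cluster assembly. Glrx5 had 1.21, 1.22 and 1.39 in ZnO cells, against 1.18, 1.29, 1.19 and 1.099 in control cells. Its second, dimmer probe gave -0.18 (SE 0.20), so the sign was not shared. Glrx, Glrx2 and Glrx3 had log2 fold changes of 0.031, 0.015 and 0.011. Dimmer probes to Glrx2 gave -0.087 (SE 0.15) and 0.065 (SE 0.086), so its sign was not shared by all its probes either.

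Glutathione reductase varied most between ZnO arrays. Gsr had log2 levels of -0.35, -0.85 and -0.71 on the ZnO arrays, against -0.68, -0.78, -0.63 and -1.07 on the control arrays, a fold change of 0.15 (SE 0.15, 95% interval -0.20 to 0.50, adjusted p = 0.973, limma). ZnO replicate 1 was above every control array and ZnO replicate 2 below 3 of them. The log2 fold change of Gsr depended on single arrays: it was 0.057 without control replicate 4 and 0.20 without control replicate 3. With array weights it was -0.023. Gss, which completes glutathione, had -0.60, -0.58 and -0.49 in ZnO cells, against -0.66, -0.47, -0.37 and -0.51 in control cells, a fold change of -0.054 (SE 0.085).

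Cytosolic glutathione transferases had fold changes of both signs, within the spread of the arrays. Gstp1, the pi-class enzyme, had 2.52, 2.42 and 2.35 in ZnO cells, against 2.18, 2.32, 2.24 and 2.52 in control cells, a log2 fold change of 0.12 (SE 0.098). All ZnO arrays lay above 3 of the 4 control arrays, and control replicate 4 lay among them. The overlapping second probe gave 0.14. Gsta4, which acts on the lipid peroxidation product 4-hydroxynonenal, had -3.93, -4.10 and -4.03 in ZnO cells, against -3.93, -4.17, -3.35 and -4.13 in control cells. Its log2 fold change of -0.13 (SE 0.19) rested on control replicate 3, and without that array it was 0.057. The microsomal Mgst1 had 3.25, 3.08 and 3.07 in ZnO cells, against 3.04, 3.04, 3.23 and 3.20 in control cells, a fold change of 0.0067 (SE 0.085), and Mgst2 and Mgst3 had fold changes of 0.050 and -0.032.

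One probe stood apart from the rest. Of the 51 probes tested for the 39 genes, the dimmer Gstt2 probe alone passed an unadjusted limma p of 0.05, which is 1.96% of them against 5.92% of all 20043 tested probes. It had -6.04, -5.86 and -5.86 in ZnO cells, against -5.03, -5.34, -5.58 and -4.91 in control cells, and was well above background on 0 ZnO arrays and 4 control arrays. The groups did not overlap, but the probe was tested only because the control arrays, where it was higher, were above background. Its test and the lack of overlap therefore cannot decide whether it changed (adjusted p = 0.495, limma). The ZnO arrays were not well above background, so their level was replaced by a floor, and the control mean was 1.51-fold above that floor. This ratio leaves out the spread of the arrays: the 95% interval of the log2 fold change was -1.08 to -0.33. The ratio holds for the processed signal alone: with normexp the log2 fold change was -0.26, and in the deposited table -0.27, both smaller in size than the ratio. The floor was, on each array, the lowest signal among probes well above background or the probe's own, whichever was higher. The groups overlapped for the brighter Gstt2 probe. It had -2.61, -2.73 and -2.58 in ZnO cells, against -2.50, -2.41, -2.62 and -2.67 in control cells, and a fold change of -0.091 (SE 0.087). The difference between the probes was not tested.

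The Txn1 tag probe also departed from its partner. It had -2.41, -2.45 and -2.91 in ZnO cells, against -2.48, -2.50, -2.32 and -2.06 in control cells, a log2 fold change of -0.25 (SE 0.16, adjusted p = 0.929, limma). The groups overlapped, with ZnO replicate 3 the lowest array. Since the probes read in opposite directions, the tag probe may not measure the Txn1 transcript, and the transcript probe was used for the gene. Over the 10 genes with more than 1 tested probe the fold changes of the probes differed by 0.020 (Gstp1) to 0.61 (Gstt2), and by 0.152 or less in 7 of them.

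**Figure D4:**
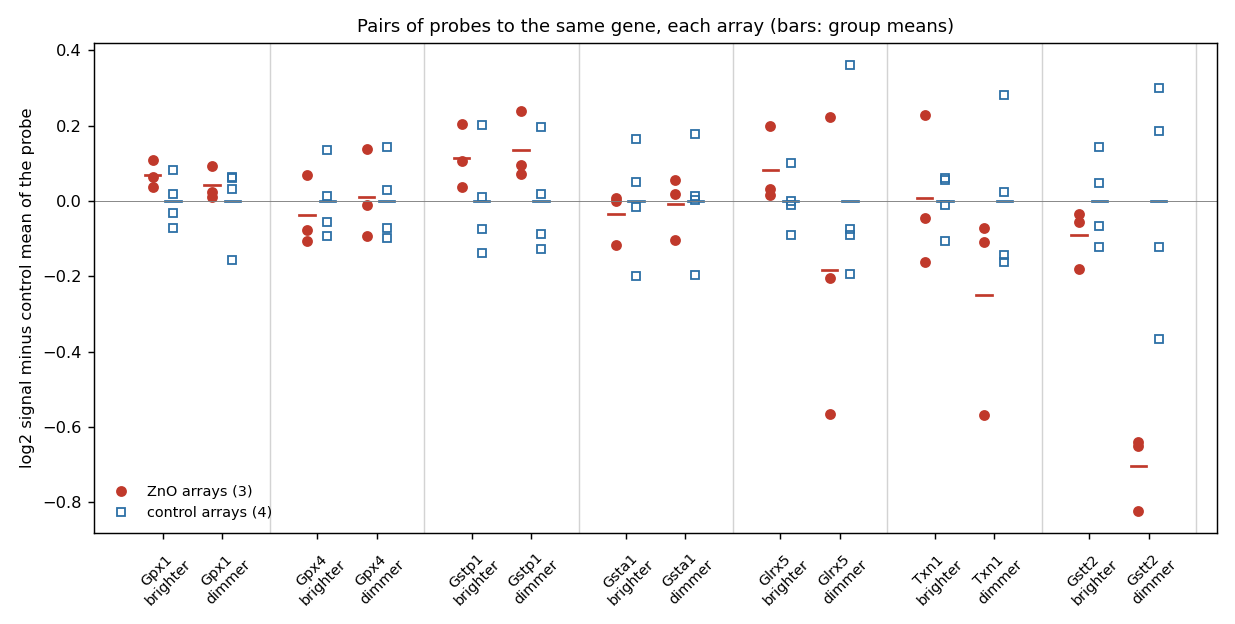
The log2 signal of pairs of probes to the same gene on each array, minus the probe's control mean, with ZnO arrays in red (3, left) and control arrays in blue (4, right) and bars at the group means. The dimmer Gstt2 probe is the only one of the 14 shown whose groups do not overlap.

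ZnO replicate 1 was often at an edge of its group: in 35 of the 39 genes it was the highest (22) or the lowest (13) of the 3 ZnO arrays, whereas ZnO replicate 2 was so in 14 and ZnO replicate 3 in 29. Without it the groups no longer overlapped in 6 genes: Cat, Gsta2, Mgst2, Prdx1, Prdx2 and Txndc17. Under that setting the groups did not overlap in 22.1% of all genes. Gsta2 was among the 6 only because both remaining ZnO arrays were above background, where 1 of 4 control arrays was, so its difference is not given. None of the 6 passed the adjusted threshold in limma. The median SD among the ZnO arrays was 0.10 and among the control arrays 0.10 over the 39 genes.

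The wider pathway was examined with 64 further gene symbols for glutathione synthesis and breakdown, thiol and peroxide partners, NRF2 and its other targets, NADPH supply, and selenoproteins and their synthesis. Of these 55 were on the array. The absent symbols, namely Ero1a, Ero1b and those beginning with Seleno, say nothing of detection. Of the 55 genes 50 were tested and 0 passed the adjusted threshold. At an unadjusted limma p of 0.05, 4 were higher and 0 lower, against 3.21% higher and 2.66% lower over all genes. Their median log2 fold change was 0.0079. The groups did not overlap in 6 of the 50, namely Hmox1, Srxn1, Gclc, Chac2, Sephs2 and Pstk, against 7.46% of all genes. Hmox1, heme oxygenase and a target of NRF2, had log2 levels of 4.32, 4.53 and 4.92 on the ZnO arrays, against 3.08, 3.57, 3.27 and 3.93 on the control arrays. Every ZnO array lay above every control array, and the fold change was 1.13 (SE 0.22, adjusted p = 0.414, limma).

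Srxn1, sulfiredoxin, which restores peroxiredoxins inactivated by excess peroxide, had 2.45, 2.44 and 2.59 in ZnO cells, against 2.16, 2.21, 2.13 and 2.12 in control cells. The groups did not overlap, with a log2 fold change of 0.34 (SE 0.069, adjusted p = 0.418, limma). Its substrates Prdx1, Prdx2, Prdx3 and Prdx4 had log2 fold changes of 0.058, -0.018, -0.045 and -0.029. Gclc, the catalytic subunit of the enzyme that limits glutathione synthesis, had 1.603, 1.72 and 1.74 in ZnO cells, against 1.53, 1.54, 1.47 and 1.52 in control cells, a fold change of 0.17 (SE 0.067, adjusted p = 0.823). Its partner Gclm was not well above background on any array. Chac2, which degrades glutathione, had -2.78, -2.72 and -2.56 in ZnO cells, against -2.85, -2.85, -2.85 and -3.06 in control cells, a fold change of 0.21 (SE 0.090, adjusted p = 0.834).

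Slc7a11, the cystine transporter that feeds glutathione synthesis, had 1.58, 1.38 and 1.32 in ZnO cells, against 1.58, 1.31, 1.502 and 1.42 in control cells, a log2 fold change of -0.029 (SE 0.097). Txnrd1, the cytosolic thioredoxin reductase, had -1.28, -0.61 and -0.44 in ZnO cells, against -0.53, -0.51, -1.003 and -0.73 in control cells, a fold change of -0.084 (SE 0.21). Its ZnO replicate 1 was the lowest of all arrays, and without it the log2 fold change was 0.17. The 8 genes of NADPH supply ran from -0.15 (Idh2) to 0.10 (Me1). Whether any of these genes differed from the 39 in its change was not tested.

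**Figure D5:**
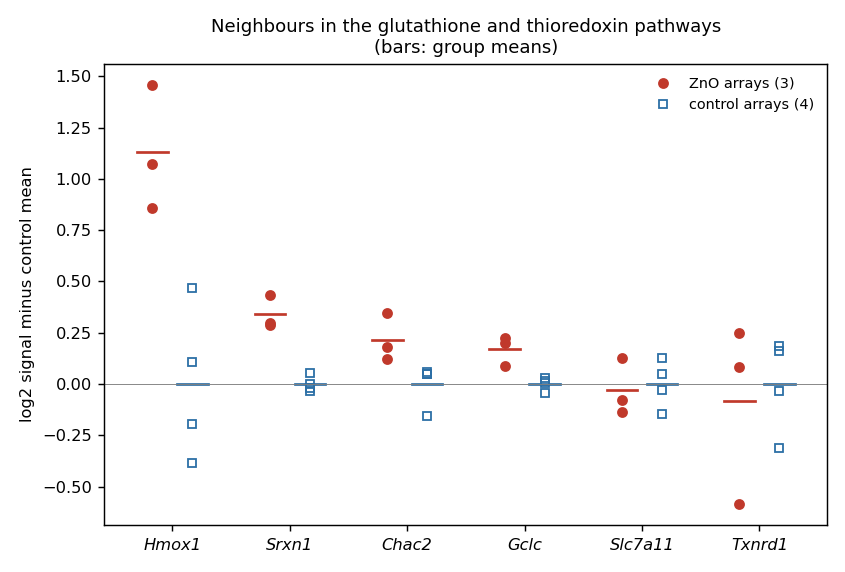
The log2 signal of 6 genes of the wider pathway on each array, minus the control mean, with ZnO arrays in red (3, left) and control arrays in blue (4, right) and bars at the group means. The groups are separate, as in 7.46% of all genes, for Hmox1, Srxn1, Chac2 and Gclc, the 4 at an unadjusted limma p under 0.05. They overlap for Slc7a11 and Txnrd1, and none of the 6 passed an adjusted p of 0.05.

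The promoters of the genes were searched for the elements named above, from 250 bases before to 50 after the start site (RefSeq, GRCr8, 54 of the 61 genes matched by symbol), on both strands. The core of the antioxidant response element, TGACNNNGC, occurred in 15 of 54 promoters (27.8%), against 12.2% of all 27457 promoters, and in 10 of the 35 tested genes with a promoter (Gsta1, Gstp1, Gstz1, Prdx1, Prdx4, Prdx5, Sod2, Txndc11, Txndc17 and Txndc5). The matches in Gsta1 and Gsta3 lay in nearly identical sequence, so the 15 are not all independent, and the difference in share was not tested. The metal response element, TGCACNC or TGCGCNC, occurred in 14 of 54 (25.9%), against 6864 of the 27457 promoters, almost the same share. The AP-1 site, TGANTCA, can lie inside the antioxidant core and did so in Gstp1 and Prdx1, and it occurred in 6 of 54 (11.1%), against 7.33% of all. The windows below show the antioxidant core in capitals for those genes, for Sod2, for Txndc17 and for Mt2A, which rose on these arrays and carries the same 9 letters as Prdx1 and Gstp1. The Mt2A core therefore also holds an AP-1 site.
Prdx1, chr5:135383761-135383789, minus strand: cggcggggtaTGACTCAGCgctttccctg
Gstp1, chr1:210769748-210769776, minus strand: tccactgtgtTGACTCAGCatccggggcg
Sod2, chr1:50050185-50050213, plus strand: agctaggcgcTGACCCTGCcggcagcgcc
Txndc17, chr10:57331295-57331323, plus strand: cccggaaactTGACCACGCcttacttggg
Mt2A, chr19:10838927-10838955, minus strand: aaagggggtgTGACTCAGCgcgggggcgt
The metal response elements of each promoter were counted, with matches that overlap on opposite strands, as in Gsta4, counted separately. The promoter of Mt1, the current symbol of Mt1a, held 6 matches, that of Mt2A 4 and that of Slc30a1 2, while among the 35 tested genes Gsta4 held 3, Gstp1 and Txnrd3 held 2 each, 6 genes held 1 each and 26 held 0. The number for Slc30a1 lay within the range of the 35 tested genes. Mt1, Mt2A and Slc30a1 each held 1 antioxidant core. The promoter of Srxn1 held 0 antioxidant cores and 0 metal response elements. Any link between the number of matches and the change of a gene was not tested. A match of letters is not a bound site, and no binding was measured here.
For comparison, one of the 4 matches in Mt2A is shown beside the one in Mgst1, with the element in capitals.
Mt2A, chr19:10838747-10838773, minus strand: gcggagctttTGCGCGCgacccaatac
Mgst1, chr4:172760962-172760979, minus strand: tTGCACCCacctgaatcc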

How the data were processed

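RNA from 3 ZnO and 4 control samples was labelled with Cy3 and hybridised to one-color Agilent rat arrays. Per the file headers the authors scanned them with Agilent Feature Extraction 11.0.1.1, whose processed signal is a background-subtracted intensity, detrended within each array and not scaled between arrays. A further table that the authors deposited for the whole series equalled the scanner's median intensity on all 62976 spots and served as an alternative. Control and outlier spots were left out, log2 intensity was centred on each array's 75th percentile, and spots of a probe were averaged. A probe was tested where it was well above background on every array of at least 1 group (20043 probes), and the brightest tested probe stood for a gene. Groups were compared with limma 3.58.1 (R 4.3.3), with Benjamini-Hochberg adjustment over all tested probes, after a test on simulated data. Replicate numbers did not pair the arrays. The number of arrays limits the precision.

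Values were given per array for the main enzymes of each group, the 5 highest and 5 lowest fold changes, and the pathway genes at an unadjusted p of 0.05. The genes and lists were chosen with earlier results of these data known. Coordinates of probes are those of the files (rn4).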

Additional observations from a re-analysis of the deposited data

Results flagged for a closer look

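In 57 groups of 4 control arrays, those of the tested probes of these genes and of the pathway genes given above, 4 had an array far from the others, where chance flags about 1 in 20 groups. The gap to the nearest array, as a share of the range of the group, was 0.850 for the dimmer Gpx1 probe (control replicate 1 at 3.82, the others from 4.00 up) and 0.849 for a dimmer Txndc15 probe (control replicate 4 at 0.72, the others from 0.99 up). It was 0.876 for Gstz1 (control replicate 4 at -1.85, the others from -1.53 up) and 0.957 for Chac2 (control replicate 4 at -3.06, the others from -2.85 up). Without control replicate 4 the log2 fold change of Chac2 was 0.16, against 0.21 with every array.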

How the results depend on the processing

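The count of 0 genes at an adjusted p of 0.05 was unchanged under all 22 alternatives tried. At an unadjusted limma p it was 1 of 39 with array weights (Txndc16, against 13.3% of all probes), 1 with a gene taken as the average of its tested probes (Gstt2, against 5.93%, and then also the 1 gene whose groups did not overlap, against 7.47% of all genes), and 0 to 2 when each array was left out in turn, when the number of genes without overlap ran from 0 to 6. Over all genes the share without overlap was then 10.6% to 22.1%. Without ZnO replicate 1, where both numbers were highest, 8.96% of all probes passed and 22.1% of all genes did not overlap. There 40 genes were tested, and both numbers include Gsta2, which is not among the 39 and was tested only through the ZnO arrays. Replicate numbers did not pair the arrays (correlations of deviations of -0.092, 0.21 and -0.23), and with the replicate block, which leaves control replicate 4 without a partner and so out of the fold changes, 0 of the 39 genes and 4 probes in all passed the adjusted p, against 7 probes without the block and without that array. Hmox1 and Srxn1 stayed above 0 throughout. Their lowest adjusted limma p were 0.095 (Hmox1, array weights) and 0.156 (Srxn1, trended and robust variance), and the highest was 0.99997 for both.

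Small fold changes changed sign. Centring on spike-in spots moved the median of all probes to 0.14 and that of the 39 genes to 0.148, with Sod1 at 0.14, Sod2 0.145, Gpx4 0.11, Gss 0.096, Txnrd2 0.12, Txndc16 0.019, Gsta4 0.025, Gstt2 0.059, Slc7a11 0.12 and Txnrd1 0.066, and of these only Sod2 lay above the shift of all probes. Sod1 was 0.040 with normexp, 0.021 with normexp and quantile normalization and 0.038 in the deposited table, where Mgst1 was -0.019, -0.039 and -0.027. Mgst1 was also -0.017 with quantile normalization, -0.031 with median centring and -0.0028 with array weights. Txn1 was -0.031 with median centring, -0.0033 with normexp, -0.0030 in the deposited table, -0.031 with array weights and -0.12 as the mean of its probes, and Glrx5 -0.050 as the mean. Gpx4 was 0.00077 in the deposited table and 0.0067 with the replicate block. Array weights gave Sod2 0.051, Prdx6 -0.014, Gsr -0.023 and Txnrd1 0.0092. Leaving out each array gave -0.096 to 0.065 for Sod1, -0.081 to 0.13 for Sod2, -0.092 to 0.0067 for Gpx4, -0.031 to 0.11 for Prdx6, -0.10 to 0.092 for Txn1, -0.10 to 0.026 for Txnrd2, -0.22 to 0.057 for Gsta4, -0.053 to 0.040 for Mgst1, -0.11 to 0.024 for Slc7a11 and -0.25 to 0.17 for Txnrd1. The cause of these changes was not tested.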
